A study of Mus musculus with 6 samples.

Results

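The 7 transcription factor genes that set or maintain intestinal epithelial identity (Cdx1, Cdx2, Hnf4a, Hnf4g, Klf5, Elf3 and Isx) were followed in crypts of the colon with and without GSK503 treatment. They were chosen by gene symbol from the deposited expression table, and all 7 were among its 18049 genes. Total RNA-Seq had been performed on crypts isolated from the colon of 3 control and 3 GSK503-treated mice of a Lynch syndrome model, with 1 library per mouse. All 6 mice were on a C57BL/6J background, had a Villin-Cre transgene, which drives Cre recombinase in intestinal epithelium, and carried a humanized knock-in of the TGF-β type II receptor gene. All received a Western-style diet from 8 weeks of age. GSK503, an inhibitor of the histone methyltransferase EZH2, was injected into the tail vein at 200 μg/kg body weight for 9 weeks. The study's methods name sterile PBS as the carrier of the drug and sterile 20% captisol in PBS as the injection of the control mice. Captisol is not stated for the GSK503-treated mice, so the carrier may differ between groups. The comparison asks whether EZH2 inhibition in vivo moved the factors that define colonic epithelium.

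CDX1 and CDX2 are caudal-type homeobox proteins that direct cells of the embryonic hindgut to an intestinal fate, and CDX2 keeps that fate in the adult epithelium. HNF4A and HNF4G are paralogous nuclear receptors that bind the same DNA element and drive genes of lipid handling and the brush border in enterocytes. KLF5 is a zinc-finger factor of proliferating crypt cells, ELF3 is an epithelial ETS factor, and ISX is an intestine-specific homeobox protein that represses carotenoid and lipid uptake genes. EZH2 is the catalytic subunit of Polycomb repressive complex 2, which places a repressive methyl mark on histones, and homeobox genes such as those of the CDX family are textbook targets of Polycomb in cells where they are silent.

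In the GRCm39 annotation, Cdx2 lies on the minus strand of chr5:147237615-147244091, Hnf4a on the plus strand of chr2:163348728-163414830 and Hnf4g on the plus strand of chr3:3573084-3724860. Klf5 lies on the plus strand of chr14:99536086-99552473, Elf3 on the minus strand of chr1:135181306-135188999 and Isx on the plus strand of chr8:75599756-75620134. The expression values count reads over whole genes, so the alternative first exons of Hnf4a enter a single value.

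The 250 bases upstream of the start of Cdx2, of the upstream listed start of Hnf4a and of the start of Isx are shown because they hold matches to the element of the ELF3 type, or to the GATA element, and RNA of Elf3 and of GATA factors was measured here. They were taken from RefSeq (GRCm38.p6, an older build than that of the expression values), on the strand of the gene, 5′ to 3′. Capitals mark the ETS core AGGAAG, on either strand, or the GATA site AGATAA.
Cdx2, chr5:147307250-147307499, minus strand: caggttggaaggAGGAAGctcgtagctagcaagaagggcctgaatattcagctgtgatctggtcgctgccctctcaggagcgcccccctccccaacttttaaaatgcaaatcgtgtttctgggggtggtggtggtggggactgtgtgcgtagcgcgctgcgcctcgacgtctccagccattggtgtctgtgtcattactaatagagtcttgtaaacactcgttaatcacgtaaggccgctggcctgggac
Hnf4a, upstream start, chr2:163506607-163506856, plus strand: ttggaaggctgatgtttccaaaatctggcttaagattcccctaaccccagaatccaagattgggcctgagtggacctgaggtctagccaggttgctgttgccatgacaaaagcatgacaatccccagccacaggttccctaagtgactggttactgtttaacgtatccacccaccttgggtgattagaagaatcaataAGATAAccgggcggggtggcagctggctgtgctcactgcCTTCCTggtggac
Isx, chr8:74872924-74873173, plus strand: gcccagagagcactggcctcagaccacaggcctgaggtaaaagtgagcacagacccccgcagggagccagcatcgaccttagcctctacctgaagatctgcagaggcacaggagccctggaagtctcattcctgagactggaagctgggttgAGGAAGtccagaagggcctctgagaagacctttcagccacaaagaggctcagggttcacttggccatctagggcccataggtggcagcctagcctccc

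The ETS core lay 238 to 233 bases before the start of Cdx2, 98 to 93 bases before that of Isx and, on the reverse strand, 13 to 8 bases before the upstream start of Hnf4a. The last window also held 1 GATA site, 52 to 47 bases before the start. Of 32851 mouse promoter windows of this length, 29.5% held the ETS core and 9.99% the GATA site. RefSeq windows were found for 4 of the 7 genes (Cdx2, Hnf4a with 2 starts, Elf3 and Isx) and not for Cdx1, Hnf4g and Klf5. The windows of Elf3 and of the downstream start of Hnf4a held neither element. None of the 5 windows held the CDX core TTTAT, which 37.3% of all windows held, the HNF4 element CAAAGTCCA (0.384%) or the KLF box CCACACCC (3.20%). Both strands were searched and no matches of different elements overlapped. These are matches of letters and not measured binding.

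The libraries held an estimated 108162848 to 135085027 counts, so that 3 counts correspond to a value of 0.0228 to 0.0271. The lowest value of any of the 7 factors rested on about 3808 counts, and mouse-to-mouse spread, not counting error, set their precision. All pairs of libraries correlated at r = 0.977 to 0.990 over genes. Ezh2, whose protein the drug inhibits, stood at 37.4 to 46.7 in control and 35.2 to 36.6 in GSK503-treated mice (log2FC −0.27, limma adjusted p = 0.291). Every GSK503-treated value lay below every control value, as for 9.22% of all genes tested. It was not called here, while the study, which used edgeR, reported Ezh2 as downregulated in crypts. Xist, the X-inactivation RNA, was at 0.42 to 0.94 in control and 825 to 1236 in GSK503-treated mice, and the Y-linked Uty at 42.5 to 53.7 and 0.67 to 1.08. Sex-linked expression therefore divided the mice exactly as treatment did, and the contributions of sex and GSK503 to any difference below cannot be told apart.

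The identity factors were abundant in every mouse, and none passed the test between GSK503-treated and control crypts. At an adjusted p below 0.05 (limma on log2(value + 0.1), Benjamini-Hochberg over 16670 genes tested), 0 of 7 were called, against 0.642% of all genes tested. The count was also 0 of 7 at an adjusted p below 0.1 (1.97% of all genes) and with limma-voom. At an unadjusted p below 0.05 the count was 1, Hnf4g (13.3% of all genes). The 2 groups overlapped for all 7 factors, whereas they did not overlap for 19.1% of all genes. Mean levels were higher in GSK503-treated mice for 2 factors and lower for 5. The median log2FC of the 7 was −0.05, beside −0.01 for all genes tested, and their median absolute log2FC was 0.05, beside 0.16. Values are CPM, estimated counts relative to library size that the authors scaled with the trimmed mean of M-values (TMM) method, and all log2FC values are GSK503 minus control.

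**Figure D1:**
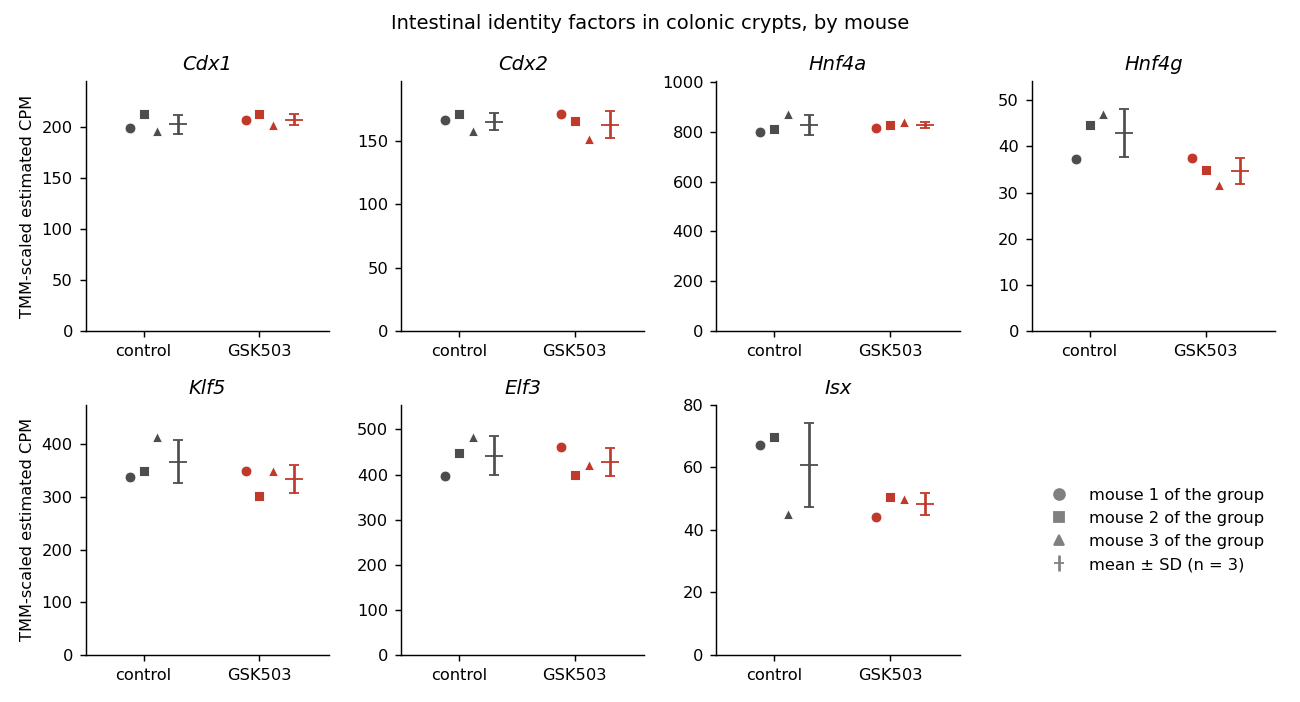
Expression of the 7 intestinal identity factors in each mouse (y axis, TMM-scaled estimated CPM, starting at 0; x axis, treatment group). Symbols are individual mice and bars the mean ± SD of 3 mice. The groups overlap for every factor, with Hnf4a at 799.6 to 872 and Hnf4g at 31.7 to 47.1 over all 6 mice.

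To set levels of different genes side by side, values were divided by the length of the annotated exons of each gene. The lengths of the transcripts expressed in crypts were not used, so the order and percentages below depend partly on the annotation. On this scale Hnf4a was the highest at 164 per kb on average over the 6 mice (159 to 173). Elf3 followed at 148 (135 to 164), a range that overlapped that of Hnf4a. Cdx1 stood at 103 per kb (98.5 to 107), above Cdx2 at 72.2 (66.5 to 75.4) and Klf5 at 66.8 (57.7 to 78.8), and the last 2 ranges overlapped. Isx stood at 29.6 per kb (24.0 to 37.9) and Hnf4g at 8.84 (7.22 to 10.7), each apart from its neighbours. Hnf4a, Elf3, Cdx1, Cdx2 and Klf5 each exceeded 97.1% or more of the genes tested on this scale. Isx exceeded 93.3% and Hnf4g 77.7%.

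Cdx1 and Cdx2, the factors of hindgut fate, were nearly level between groups. In control crypts Cdx1 was at 199, 213 and 195, and after GSK503 at 207, 212 and 201. All 6 values lay within the range of the controls. The log2FC was 0.03 (SE 0.07, 95% interval −0.12 to 0.19, limma adjusted p = 0.888), and the interval on the linear scale was 0.918- to 1.14-fold. Cdx2 was at 167, 171 and 158 in control and 171, 166 and 151 in GSK503-treated mice. The third GSK503-treated mouse was the lowest of all 6 and the third control mouse the next. The log2FC of Cdx2 was −0.02 (SE 0.08, 95% interval −0.19 to 0.15, limma adjusted p = 0.936), with a linear interval of 0.876- to 1.11-fold. Of all genes tested, 12.4% had a smaller absolute log2FC than Cdx1 and 8.29% a smaller one than Cdx2.

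Hnf4a, the more abundant of the HNF4 receptors, was at 799.6, 809.9 and 872 in control and 815, 827 and 839.7 in GSK503-treated mice. All GSK503-treated values lay inside the control range. The log2FC was 0.00 (SE 0.08, 95% interval −0.19 to 0.19, limma adjusted p = 0.997), or 0.878- to 1.14-fold, and 0.378% of all genes tested had a smaller absolute log2FC. Hnf4g was at 37.2, 44.5 and 47.1 in control and 37.4, 34.8 and 31.7 in GSK503-treated mice. The first control mouse fell among the GSK503-treated mice and the other two were above all of them. The mean was 42.9 ± 5.15 in control and 34.7 ± 2.87 in GSK503-treated mice (SD, n = 3 each). The log2FC of Hnf4g was −0.30 (SE 0.11, 95% interval −0.55 to −0.06), with a limma adjusted p = 0.264 (0.0193 before adjustment), and it did not pass the test. Over 17 alternative settings its adjusted p ranged from 0.0786 to 0.583, and leaving out each mouse in turn gave log2FC values of −0.40 to −0.23.

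Klf5, the crypt zinc-finger factor, was at 338, 349 and 413 in control and 349, 302 and 349.9 in GSK503-treated mice. The third control mouse stood above the other 5 and the second GSK503-treated mouse below them. The log2FC was −0.13 (SE 0.10, 95% interval −0.36 to 0.09, limma adjusted p = 0.612). Elf3, the epithelial ETS factor, was at 397, 448 and 482 in control and 462, 399.9 and 422 in GSK503-treated mice, with the lowest and the highest value both among controls. Its log2FC was −0.05 (SE 0.10, 95% interval −0.26 to 0.17, limma adjusted p = 0.887).

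Isx was the most variable of the 7 between mice. It was at 67.2, 69.6 and 45.2 in control and 44.1, 50.6 and 49.7 in GSK503-treated mice. The first and second control mice stood above all GSK503-treated mice, and the third control mouse fell among them. The mean was 60.7 ± 13.4 in control and 48.2 ± 3.53 in GSK503-treated mice (SD, n = 3 each). The log2FC was −0.31 (SE 0.15, 95% interval −0.65 to 0.03, limma adjusted p = 0.428). Leaving out each mouse in turn gave log2FC values of −0.51 to −0.20. The value of −0.51 was without the third control mouse, with a limma adjusted p = 0.072, which also missed the threshold. Over 17 alternative settings the adjusted p of Isx ranged from 0.072 to 0.669. In these bulk libraries a lower value can stand for fewer cells with the transcript or for less of it per cell, and these cannot be told apart.

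Paralog ratios within each mouse do not depend on how a library was scaled. The Cdx1:Cdx2 ratio was 1.19, 1.24 and 1.24 in control and 1.21, 1.28 and 1.33 in GSK503-treated mice. The groups overlapped, and the mean log2 ratio differed by 0.06 (exact two-sided permutation p = 0.3, n = 3 each). The Hnf4a:Hnf4g ratio was 21.5, 18.2 and 18.5 in control and 21.8, 23.7 and 26.5 in GSK503-treated mice. All 3 GSK503-treated mice lay above all 3 controls, the first mouse of each group by the narrowest margin. Among single genes tested, the groups did not overlap for 19.1%, and no such share was computed for ratios. The mean log2 ratio was higher by 0.31 with GSK503 (1.24-fold), with an exact two-sided permutation p = 0.1, the smallest that 3 against 3 mice can give, so the design could not reach 0.05. Leaving out each mouse in turn gave differences of 0.23 to 0.38. With Hnf4a level between groups (log2FC 0.00), the ratio restates the lower Hnf4g (log2FC −0.30) and is not a separate observation.

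**Figure D2:**
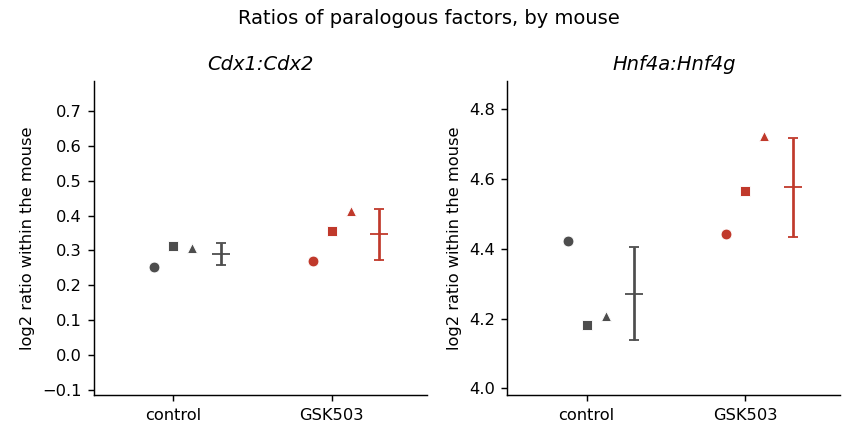
Log2 ratio of Cdx1 to Cdx2 and of Hnf4a to Hnf4g within each mouse (y axes, both spanning the same distance on the log2 scale; x axis, treatment group). Points are mice (circle, square and triangle for mice 1, 2 and 3 of a group) and bars the mean ± SD of 3 mice; the Cdx1:Cdx2 ratios overlap between groups, and the Hnf4a:Hnf4g ratios of all 3 GSK503-treated mice lie above those of the controls.

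Across the 6 mice the factors did not move as a block. Pearson correlations of log2 values ranged from −0.69 to 0.82 over the 21 pairs, the highest between Klf5 and Elf3 and the lowest between Cdx1 and Klf5. These points share libraries and their scaling, and with 6 mice they are a description. Among 9235 genes with a mean value of at least 10, those most like each factor were not other identity factors. Lamp1 (r = 0.993), Bag5 (0.986) and Foxred1 (0.978) were nearest to Cdx1, and Hsd17b4 (r = 0.9997), Etv5 (0.992) and D030056L22Rik (0.981) to Cdx2. Gprin3 (r = 0.994), Pias1 (0.989) and Dnajb14 (0.970) were nearest to Hnf4a, and Smagp (r = 0.996) and Lrrc1 (0.994) to Hnf4g. Pura (r = 0.996), Zfp451 (0.996) and Tarbp1 (0.994) were nearest to Klf5, Rlim (r = 0.992), Ttc4 (0.989) and Mgat5 (0.983) to Elf3, and Eola1 (r = 0.987), Tmem222 (0.982) and Tapbpl (0.975) to Isx. The best-placed other identity factor ranked between 332 and 1890 in these lists.

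Other transcription factors of intestinal epithelium spanned log2FC values from −0.38 to 1.36, against −0.31 to 0.03 for the 7 identity factors, a difference in spread that was not tested. Of 18 tested, 0 were called at an adjusted p below 0.05 (limma; 0.642% of all genes), and limma-voom called 1, Foxa2. An unadjusted p below 0.05 was found for 5 (13.3% of all genes). At an adjusted p below 0.1, 5 were called (1.97% of all genes), 3 higher and 2 lower. Among all 18, 3 lay higher without overlap between groups and 2 lower (9.84% and 9.22% of all genes tested). These were the same 5 genes, called on the same values, so the lack of overlap adds nothing to the calls. The median log2FC of the 18 was −0.05. Foxa2 and Foxa3, forkhead pioneer factors of endoderm, and Creb3l3, a membrane-bound regulator of lipid metabolism, were the 3 higher ones. Foxa2 was at 22.0, 24.4 and 21.6 in control and 31.9, 30.8 and 32.0 in GSK503-treated mice (log2FC 0.48, limma adjusted p = 0.0505). Foxa3 was at 41.5, 45.1 and 30.5 against 54.9, 67.6 and 64.2 (log2FC 0.69, limma adjusted p = 0.0732). Creb3l3 was at 1.44, 1.53 and 1.78 against 6.21, 3.15 and 3.75 (log2FC 1.36, limma adjusted p = 0.0699). The 2 lower ones were nuclear receptors. The vitamin D receptor gene Vdr was at 299, 306 and 342 in control and 237, 237 and 251 in GSK503-treated mice (log2FC −0.38, limma adjusted p = 0.0666). Nr5a2, which encodes LRH-1, was at 94.3, 99.4 and 97.2 against 72.3, 76.1 and 81.9 (log2FC −0.34, limma adjusted p = 0.0806). Foxa2, Vdr and Creb3l3 were named as the 3 with the smallest p in this list, and Foxa3 and Nr5a2 after their values were seen. All 5 were thus picked from these same data.

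The remaining named regulators did not pass either threshold. Gata4, a factor of proximal intestine, was low at 0.39, 0.32 and 0.61 in control and 1.75, 1.02 and 0.46 in GSK503-treated mice (log2FC 1.0, limma adjusted p = 0.405). Gata6, the GATA factor of colon as well as small intestine, was at 50.3 to 52.4 and 49.6 to 55.5 (log2FC 0.06, limma adjusted p = 0.791). Sox9, a factor of crypt progenitors, was at 35.8 to 43.6 and 28.2 to 37.8 (log2FC −0.26, limma adjusted p = 0.404).

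**Figure D3:**
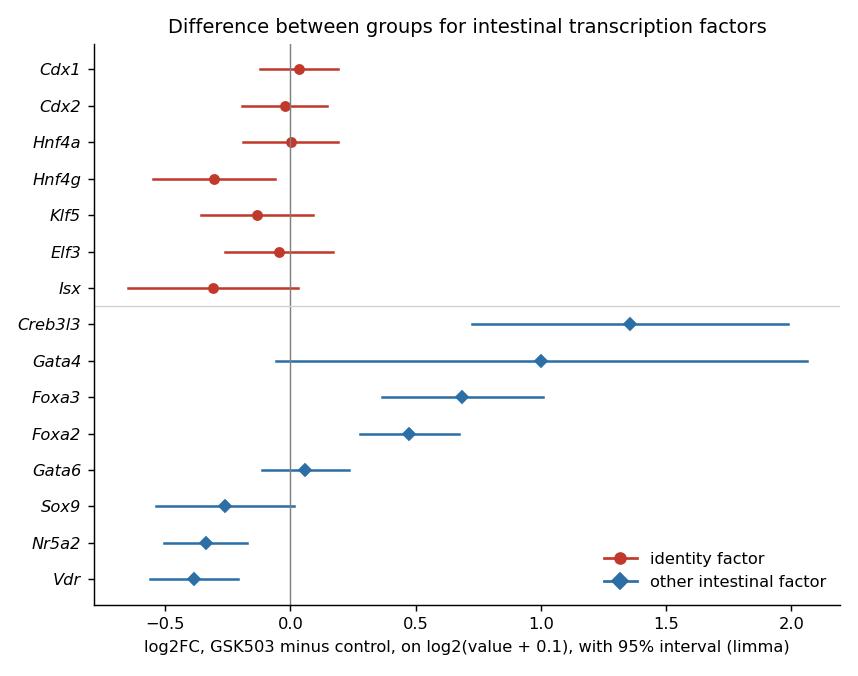
Log2FC, GSK503 minus control (x axis, on log2(value + 0.1)), with 95% intervals from limma for the 7 identity factors (circles) and the 8 other intestinal transcription factors named here (diamonds). All of the other factors except Gata4, Gata6 and Sox9 were picked by their values in these data. Identity factors range from −0.31 to 0.03, and the other factors from −0.38 for Vdr to 1.36 for Creb3l3.

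Genes associated with the factors in the intestine gave few differences. Among 12 CDX-associated intestinal genes, 0 were called at an adjusted p below 0.05 (limma; 0.642% of all genes), and limma-voom called 0. An unadjusted p below 0.05 was found for 2 (13.3% of all genes). Without overlap between groups, 1 lay higher and 1 lower (9.84% and 9.22% of all genes). The median log2FC was −0.03. Vil1, which encodes the brush border protein villin, was at 898, 849 and 856 in control and 1057, 1014 and 937 in GSK503-treated mice (log2FC 0.21, limma adjusted p = 0.363). Lct, the lactase gene of small-intestinal enterocytes, was low at 0.35, 1.10 and 0.28 against 0.22, 0.00 and 0.17 (log2FC −1.52, limma adjusted p = 0.328). Cdh17, an intestinal cadherin gene and direct CDX2 target, was at 644 to 672 and 663 to 768 (log2FC 0.13, limma adjusted p = 0.554).

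The 8 HNF4-associated brush border genes had a median log2FC of 0.13. None were called at an adjusted p below 0.05 (limma; 2 had an unadjusted p below 0.05, against 13.3% of all genes, and limma-voom called 0), and 3 lay higher in all GSK503-treated mice (9.84% of all genes). Besides Vil1 these were Espn, an actin-bundling protein gene, at 29.0 to 33.5 and 39.1 to 47.4 (log2FC 0.41, limma adjusted p = 0.106), and Cdhr2, a protocadherin gene of the intermicrovillar adhesion complex, at 507 to 521 and 570.4 to 581 (log2FC 0.16, limma adjusted p = 0.378). Of 6 HNF4-associated lipoprotein and lipid-binding genes analysed, 4 passed the filter and 0 were called (limma; 0 at an unadjusted p below 0.05, against 13.3% of all genes). Apob, the structural apolipoprotein gene, was at 136 to 166 and 127 to 178 (log2FC 0.07, limma adjusted p = 0.868). Mttp, which loads lipid onto it, was at 2.60 to 5.53 and 2.80 to 3.39 (log2FC −0.30, limma adjusted p = 0.681). Fabp1, a fatty acid binding protein gene, was at 0.08 to 0.85 and 0.08 to 0.32 (log2FC −0.94, limma adjusted p = 0.579).

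Bco1 and Scarb1, the carotenoid cleavage enzyme and the lipid uptake receptor that ISX represses, had log2FC values of −0.38 and 0.12 (limma adjusted p = 0.714 and 0.750). Bco1 was low, at 1.27 to 2.0 in control and 0.70 to 1.90 in GSK503-treated mice, and Scarb1 was at 14.0 to 18.4 and 15.9 to 19.1. Of 4 cell cycle genes associated with KLF5, 0 were called (limma; 0 at an unadjusted p below 0.05, against 13.3% of all genes), and the median log2FC was −0.03. The log2FC was −0.10 for the mitotic cyclin gene Ccnb1, −0.03 for Ccnd1 and −0.03 for Cdk1 (limma adjusted p = 0.821, 0.940 and 0.948). Tgfbr2, a target of ELF3 and the gene humanized in all of these mice, was at 66.3, 63.4 and 68.1 in control and 62.4, 58.2 and 63.3 in GSK503-treated mice (log2FC −0.11, limma adjusted p = 0.576). The highest GSK503-treated value lay just below the lowest control value. Muc5ac, a mucin gene of the stomach, was at 0.00 to 0.13 and 0.04 to 0.47 (log2FC 0.82, limma adjusted p = 0.621). With the other intestinal transcription factors included, the lists together held 48 genes tested, with a median log2FC of −0.02. At a limma adjusted p below 0.05, 0 were called (0.642% of all genes). At 0.1, 5 were called (1.97% of all genes), all 5 of them the transcription factors given above and none an associated gene.

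**Figure D4:**
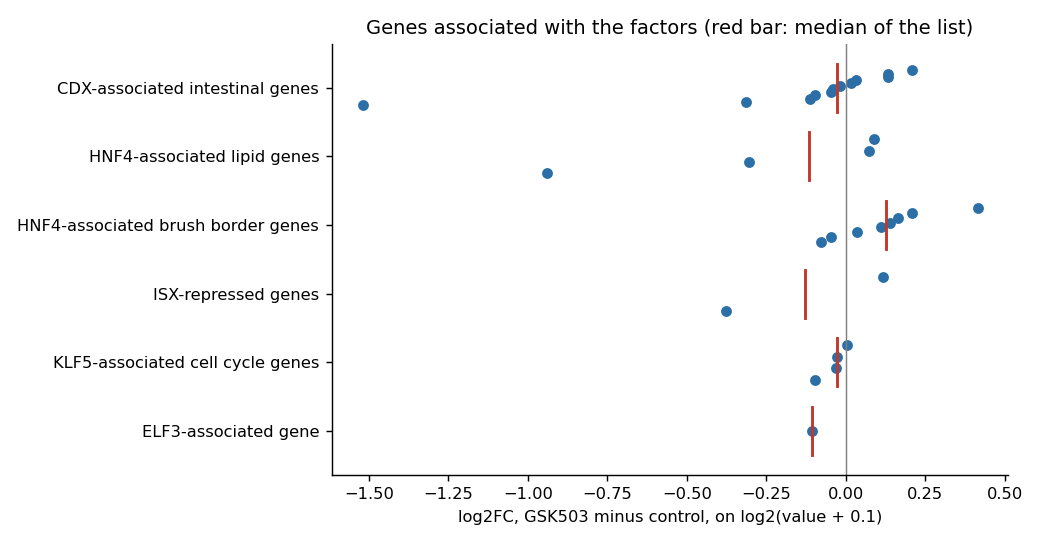
Log2FC, GSK503 minus control (x axis, on log2(value + 0.1)), of genes associated with the identity factors, 1 point per gene and 1 line per list, with the median of each list as a red bar. Medians run from −0.13 for the ISX-repressed genes to 0.13 for the brush border genes, and the far left points are Lct at −1.52 and Fabp1 at −0.94.

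Some markers of goblet and enteroendocrine cells passed the test between groups in the same libraries. The 4 epithelial markers summed to 8028 to 8859 in control and 8481 to 9722 in GSK503-treated mice, and none of the 4 were called. All 6 goblet cell markers were higher in every GSK503-treated mouse, 3 of them at a limma adjusted p below 0.05 (over all genes tested, 9.84% lay higher without overlap and 0.642% were called), with sums of 10122 to 18316 and 31336 to 49874. Of 6 enteroendocrine markers, 3 were called (0.642% of all genes) and all 3 were lower, with sums of 189 to 236 and 119 to 154. Of the 6, 5 had a log2FC below 0 and 1 went the other way, with a log2FC of 0.29. Of 3 tuft cell markers, 0 were called at 0.05 and 2 at 0.1 (1.97% of all genes), both higher, with sums of 16.9 to 25.1 and 32.0 to 37.0. The 5 proliferation markers summed to 1113 to 1264 and 874 to 1045, with 0 called. Smooth muscle markers (6 genes, none called) summed to 20.9 to 90.1 in control, 4.52 and 4.26 in the first and second GSK503-treated mice and 122 in the third. The 4 B cell markers summed to 1.84 to 15.0 and 0.43 to 1.20, with 0 called at 0.05 and 1 at 0.1, which was lower (1.97% of all genes). Without overlap between groups, 2 of the 4 lay lower (9.22% of all genes). The part of these cell-type markers in the values of Hnf4g, Isx and the forkhead factors was not tested.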

How the data were processed

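Total RNA was extracted from colonic crypts and sequenced as stranded paired-end 76 bp reads, with 1 library per mouse. Per the labels, the authors processed the reads with STAR and RSEM on GRCm39, and the study's methods give TMM scaling with edgeR. The annotation release is not given in the sources used here. The deposited signal is RSEM estimated counts scaled by TMM to CPM (sums of 975566 to 1076042). Between 76.1% and 79.0% of values per library were whole multiples of its smallest step (tolerance 0.01 counts), so the table was not treated as raw counts, and depth was estimated from that step.

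Groups and replicate numbers came from the sample labels. A gene was kept where 3 or more of 6 mice reached 0.1 (16670 of 18049; 1379 were left out), and log2(value + 0.1) was fitted with limma 3.58.1 in R 4.3.3 (lmFit, eBayes with an intensity trend, Benjamini-Hochberg adjustment over all genes tested). The pseudocount understates changes of low genes. Ratios were tested with an exact two-sided permutation test in SciPy 1.17.1. The scripts were tested on simulated data. Exon lengths and GRCm39 coordinates came from GENCODE, in which 95.4% of symbols were found. Promoter sequences came from RefSeq.

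The 7 factors, the associated gene lists and the cell markers were chosen with earlier results of these data known. Named genes were all 7 factors, any list gene with an adjusted p below 0.05 and the 3 with the smallest p in each list, fixed regulators and targets (Gata4, Gata6, Sox9, Vil1, Cdh17, Bco1, Scarb1, Tgfbr2), the checks Ezh2, Xist and Uty, and for each factor the 3 genes most like it. Some genes that the rule names are not reported here. Alternatives were 3 other pseudocounts, no filter or a mean of at least 1, library-size and median-of-ratios scaling, no trend, robust empirical Bayes, limma-voom, a replicate block and leaving out each mouse. Organoid and chromatin data of the study are not analysed here.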

Additional observations from a re-analysis of the deposited data

How the results depend on the processing

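None of the 7 factors was called under any of the 17 alternatives. With library size in place of TMM scaling, the median log2FC of all genes shifted to −0.12, and relative to it Cdx1 (−0.081) and Hnf4a (−0.11) were close to the median while their sign turned, as did that of Apob (−0.042) and Gata6 (−0.054). That scaling called 261 genes in place of 107, with 83 calls higher under both scalings and 178 lower in place of 24 (31.8% higher in place of 77.6%), and 2 list genes (Nr5a2 and Vdr) in place of 0. Genes called numbered 16 without the intensity trend and 33 with the replicate number as a block, which called 0 of the 7 factors (smallest adjusted p = 0.390). Deviations of same-numbered mice from their group means correlated at 0.03, −0.13 and −0.12, and those of differently numbered mice at −0.17 to 0.22. Deviations from a group mean sum to 0 within the group, so these values cannot decide whether the numbers mark a pairing. Foxa2 was the 1 list gene called with limma-voom, with a mean of at least 1 (1 gene) and with robust empirical Bayes (1 gene), its adjusted p lying at 0.0505 in the reported fit. Leaving out each mouse gave 29 to 216 genes called (29 without GSK503-treated mouse 2, 63 without mouse 1, 216 without mouse 3, and 44 and 49 without control mice 2 and 3), and log2FC ranges that crossed 0 for Cdx2 (−0.060 to 0.031), Hnf4a (−0.023 to 0.040), Elf3 (−0.12 to 0.019), Apob (−0.0090 to 0.24), Ccnb1 (−0.19 to 0.066), Cdk1 (−0.12 to 0.10) and Ccnd1 (−0.18 to 0.043). The cause of these shifts was not tested. With 3 mice per group, the 95% intervals of the 7 factors limit what can be said, and depth does not.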

Other observations

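Apoa4, Apoa1, Sis, Lct and Mttp, genes of small-intestinal enterocytes singled out after their values were seen, and the summed B cell markers were highest in the second control mouse, while Fabp2 (145, against 203 in the first GSK503-treated mouse), Apob (166, against 178) and Gata4 (0.32, the lowest of all 6 mice) were not. Apoa4 was at 6.11 there and at 0.04 or below in the other 5 mice, and Apoa1 at 1.90 there and at 0.08 or below elsewhere, so that neither passed the filter. In the same library Sis was at 3.69 against 0.86 to 1.90 elsewhere, Lct at 1.10 against 0.00 to 0.35, and Mttp at 5.53 against 2.60 to 3.71. The 4 B cell markers summed to 15.0 there and to 0.43 to 4.32 in the other mice. The same mouse held the highest value of all 6 mice for Isx (69.6, against 67.2 in the first control mouse). It was also highest for Cdx1, by a small margin (212.7, against 212.3 in the second GSK503-treated mouse). Without this mouse the log2FC of Isx was −0.20, in place of −0.31. It was not the highest for Cdx2 (171), Hnf4a (809.9), Hnf4g, Klf5 or Elf3.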
